A study of Drosophila melanogaster with 24 samples.

Results

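Microtubules are polymers of alpha- and beta-tubulin that give axons and dendrites their tracks for transport, and stathmin, encoded in the fly by stai, binds free tubulin dimers and tunes the growth and shrinkage of the polymer. Here 10 genes of this system were followed through RNA immunoprecipitation sequencing of fly heads. They were taken by symbol from count tables that list 17753 genes, of which 12431 had at least 1 count. They are stai, the tubulin genes alphaTub84B, alphaTub84D and betaTub56D, the structural microtubule-associated protein genes futsch, tau and Jupiter, Patronin, shot and the motor gene Khc. All 10 were among the 6147 genes that passed the expression filter. The study reported stai, from these same samples, as an RNA shared by both proteins, so its values here are not independent evidence.

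Adult female heads of Drosophila melanogaster carried the GAL4 activator under elav, a gene of neurons. The control genotype had this driver alone (elav>Gal4), a second genotype also expressed Nab2 with a FLAG epitope (elav>Nab2-FLAG), and the third expressed Ataxin-2 with a triple FLAG epitope (elav>Atx2-3xFLAG). Nab2 is a zinc finger protein that binds polyadenosine RNA, and Atx2 is a cytoplasmic RNA-binding protein that acts in translation and RNA granules. Each genotype gave 4 lysates of 300 pooled heads, fixed for 30 min in 1% formaldehyde. Of each lysate 20% was kept as Input and 80% was immunoprecipitated with anti-FLAG beads (RIP), which made 24 libraries in 6 groups of 4. The tagged proteins were driven in neurons, whereas the lysates came from whole heads. Endogenous Nab2 and Atx2 alleles are not described in the labels, and nothing in them says whether the lysates of a genotype came from separate crosses, so p-values measure only the spread between lysates. The study asked which RNAs associate with each protein and which with both.

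The libraries held 220894 to 2109561 counts, and the shallowest were the RIP libraries of control replicate 3 (220894) and Nab2-FLAG replicate 3 (254077). Nab2 RNA was higher in the Nab2-FLAG Input than in the control Input by 2.25 on the log2 scale (SE 0.20, adjusted p = 7.11e-12), and Atx2 RNA differed by 0.09 in the Atx2-3xFLAG Input (SE 0.11, adjusted p = 0.678), so the level of its own gene does not check that label. Levels below are in CPM, the reads of a gene relative to the total of its library, after TMM scaling, which corrects for RNA composition. Adjusted p-values are from the quasi-likelihood F test of edgeR with Benjamini-Hochberg adjustment over 6147 genes, and a gene was called at an adjusted p under 0.05. Levels are not compared between genes, because transcript lengths were not at hand. The RIP and Input libraries were sequenced as separate pools, so fraction and pool cannot be told apart in a RIP-to-Input difference, whereas the control carries the same difference.

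The stathmin gene stai (FBgn0266521, chromosome 2L, 6100377 to 6124653 in BDGP6, Release 6) had a higher level in the immunoprecipitates of both tagged genotypes than in that of the control. In the control RIP its level was 43.1, 48.4, 33.7 and 50.9 CPM (44.0 ± 7.61, SD, n = 4). In the Nab2-FLAG RIP it was 70.6, 73.7, 75.8 and 68.0 CPM (72.0 ± 3.41, SD, n = 4). In the Atx2-3xFLAG RIP it was 106, 86.6, 85.1 and 88.5 CPM (91.5 ± 9.73, SD, n = 4). The 3 groups did not overlap, and Atx2-3xFLAG lay highest. Of tested genes, 10.1% lay wholly above the control RIP in Nab2-FLAG, and 13.1% did so for Atx2-3xFLAG. Against the control RIP, stai rose by 0.58 on the log2 scale in Nab2-FLAG (SE 0.15, adjusted p = 0.00311) and by 0.91, or 1.88-fold, in Atx2-3xFLAG (SE 0.14, adjusted p = 2.04e-06). The 2 tagged genotypes differed from each other in the RIP by -0.33 on the log2 scale (Nab2-FLAG minus Atx2-3xFLAG, SE 0.12, adjusted p = 0.145), and 5.92% of tested genes lay wholly lower in Nab2-FLAG in that comparison.

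The Input levels of stai overlapped between all genotypes. They were 47.6, 55.7, 68.4 and 52.5 CPM in the control, 69.7, 59.6, 45.9 and 50.5 CPM in Nab2-FLAG, and 73.4, 71.8, 56.6 and 73.2 CPM in Atx2-3xFLAG. The Nab2-FLAG Input differed from the control Input by 0.05 on the log2 scale (SE 0.18, adjusted p = 0.916). The Atx2-3xFLAG Input differed by 0.30 (SE 0.18, adjusted p = 0.283). The plot of 6 RNAs in every library shows stai separated by genotype in the RIP panel. In the Input panel the control and Nab2-FLAG libraries are mixed. Atx2-3xFLAG replicates 1, 2 and 4 lie above them all, so the Atx2-3xFLAG overlap rests on replicate 3 (56.6 CPM). Scaled by library size alone, stai was called as higher in the Atx2-3xFLAG Input than in the control Input (0.55, SE 0.19, adjusted p = 0.0301). That scaling also moved the median of all genes in this comparison by 0.25.

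**Figure D1:**
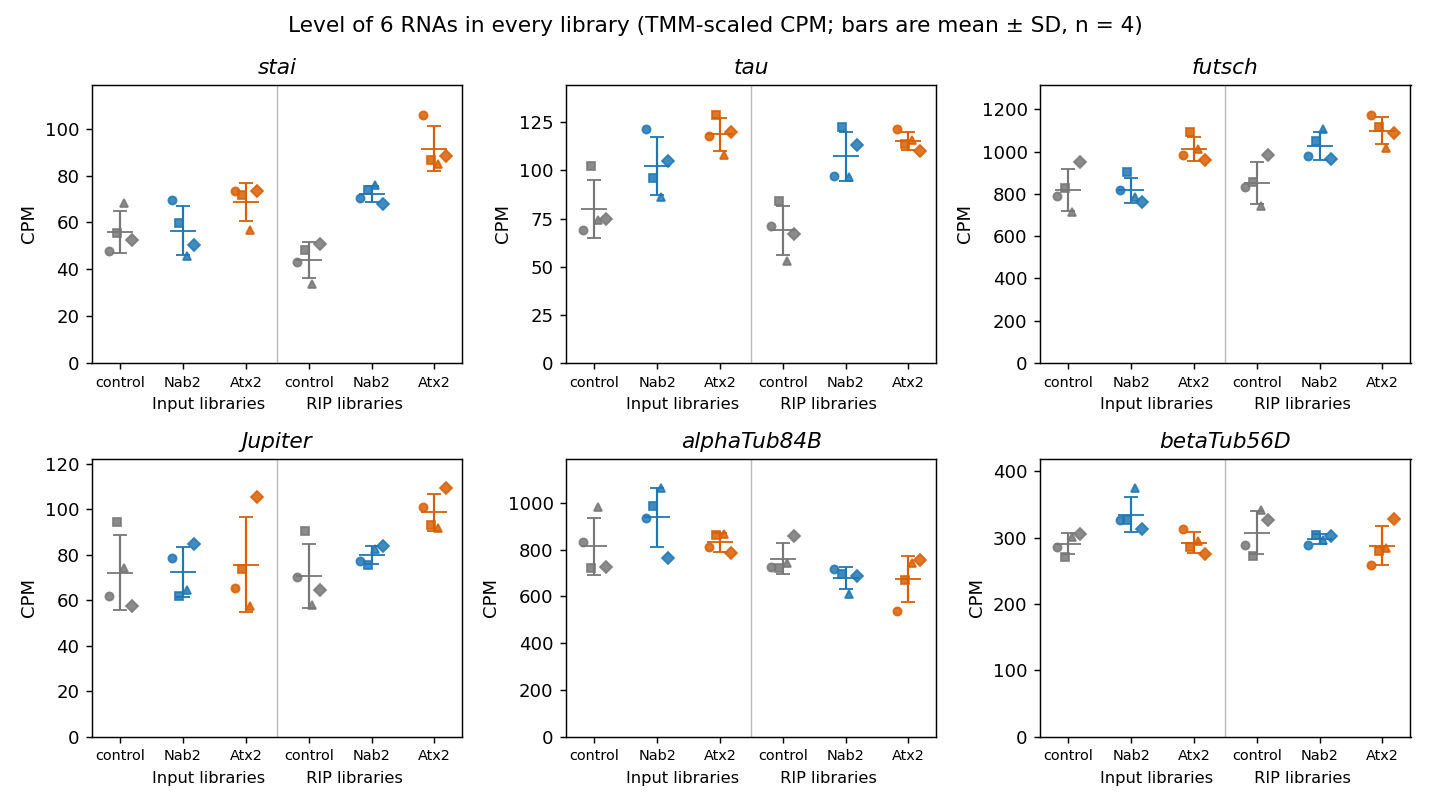
Level of 6 RNAs in TMM-scaled CPM (linear axis from 0) in the 12 Input and 12 RIP libraries, with points for lysates (circle, square, triangle and diamond for replicates 1, 2, 3 and 4) and bars for mean ± SD (n = 4); grey is control, blue Nab2-FLAG and orange Atx2-3xFLAG. In the RIP panel stai lies between 33.7 and 50.9 CPM in the control, between 68.0 and 75.8 CPM in Nab2-FLAG and between 85.1 and 106 CPM in Atx2-3xFLAG, while its Input levels overlap.

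Dividing RIP by Input within a lysate gives the recovery of an RNA, and a tagged genotype's recovery minus that of the control is called its association here. With library size in place of TMM as the only scaling, the RIP-to-Input median of all genes moves by 0.37 to 0.40, so the sign of a recovery is relative to the TMM scaling. The log2 RIP-to-Input ratios of stai were -0.14, -0.20, -0.98 and -0.04 in the control lysates. They were 0.02, 0.30, 0.70 and 0.42 in Nab2-FLAG and 0.52, 0.26, 0.57 and 0.27 in Atx2-3xFLAG. All 8 tagged lysates lay above all 4 control lysates, and every control ratio was below 0. Such separation toward higher ratios was found for 2.38% of tested genes with Nab2-FLAG and for 2.16% with Atx2-3xFLAG. For Nab2-FLAG it was narrow in stai, the lowest tagged ratio being 0.02 beside a control ratio of -0.04. The stai association was 0.52 with Nab2-FLAG (1.43-fold, SE 0.24, unadjusted p = 0.0344, adjusted p = 0.670) and 0.65 with Atx2-3xFLAG (1.57-fold, SE 0.23, unadjusted p = 0.00558, adjusted p = 0.653), and neither was called. The low control ratio of -0.98 came from control replicate 3, in which 7 stai counts were read in the RIP library, and the exact Poisson interval of that level, which covers counting error only, is 13.6 to 69.5 CPM. Without that lysate the associations were 0.42 (SE 0.25, adjusted p = 0.730) and 0.53 (SE 0.23, adjusted p = 0.787).

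The difference between the stai associations of the proteins was -0.13 on the log2 scale (Nab2-FLAG minus Atx2-3xFLAG, SE 0.21, adjusted p = 1), so a difference of this size was not detectable. Recovery in a genotype on its own was -0.23 in the control (SE 0.18, adjusted p = 0.523), 0.29 in Nab2-FLAG (SE 0.16, adjusted p = 0.297) and 0.42 in Atx2-3xFLAG (SE 0.14, adjusted p = 0.0393). The Atx2-3xFLAG call was lost without any 1 of its lysates, the adjusted p being 0.148, 0.0917, 0.265 and 0.0573 without replicates 1, 2, 3 and 4, and also without Nab2-FLAG replicate 1 (0.0548). The authors' deposited table gives stai a ratio of percent input to control of 1.62 for Nab2 (Dunnett p = 0.016) and 1.64 for Atx2 (Dunnett p = 0.0135). The Dunnett p in the authors' deposited table, which is not adjusted over genes, is under 0.05 with a ratio above 1 for 2.45% of listed genes with Nab2 and 1.79% with Atx2.

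**Figure D2:**
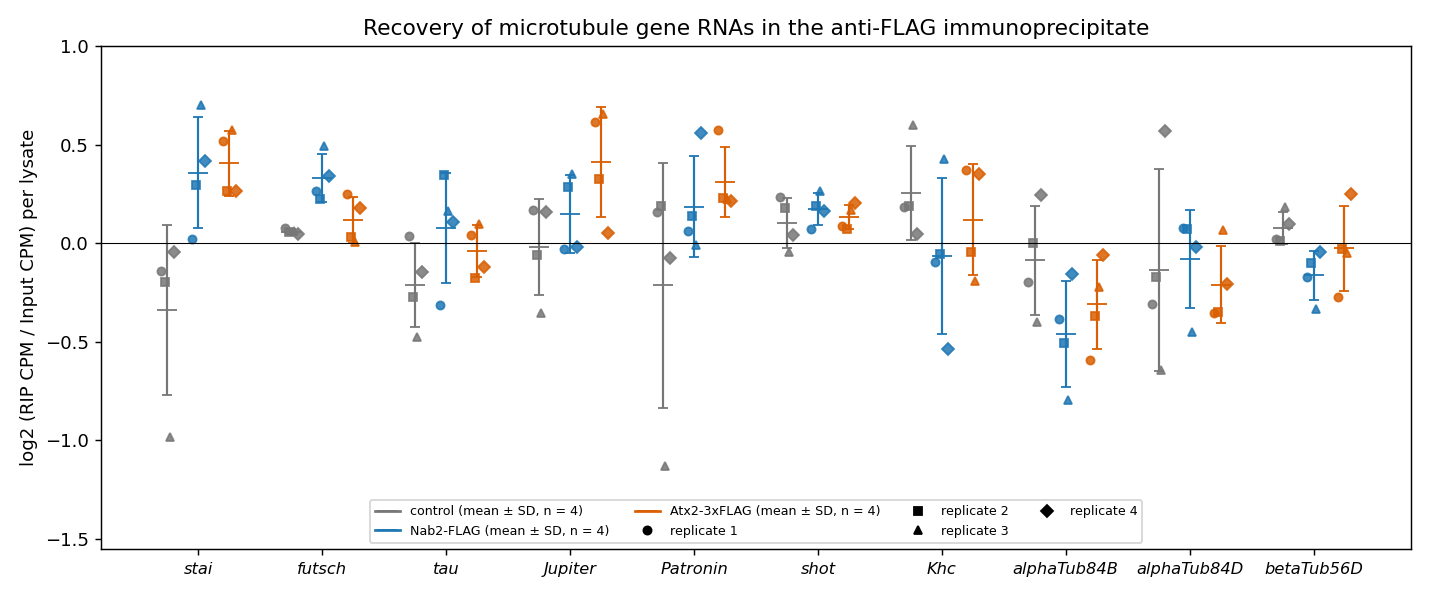
Log2 ratio of RIP to Input CPM in each of 12 lysates for the 10 genes, with points for lysates (shape gives the replicate) and bars for mean ± SD (n = 4); grey is control, blue Nab2-FLAG and orange Atx2-3xFLAG. For stai the control lysates lie between -0.98 and -0.04 and the 8 tagged lysates between 0.02 and 0.70, and for Patronin control replicate 3 lies at -1.13.

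Across all 10 genes no association was called with either protein. Of all tested genes 0.0976% were called with Nab2-FLAG and 0.0488% with Atx2-3xFLAG. The direct difference of the 2 associations was called for none of the 10 and for 0.0% of tested genes. At an unadjusted p under 0.05, 2 of the 10 were higher with Nab2-FLAG (stai and futsch, against 3.86% of tested genes) and 1 was lower (alphaTub84B, against 3.3%). With Atx2-3xFLAG stai alone was higher (against 3.5%) and none was lower (against 2.03%). The median association of the 10 was 0.08 with Nab2-FLAG and 0.04 with Atx2-3xFLAG, beside 0.01 and 0.02 over all tested genes.

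**Figure D3:**
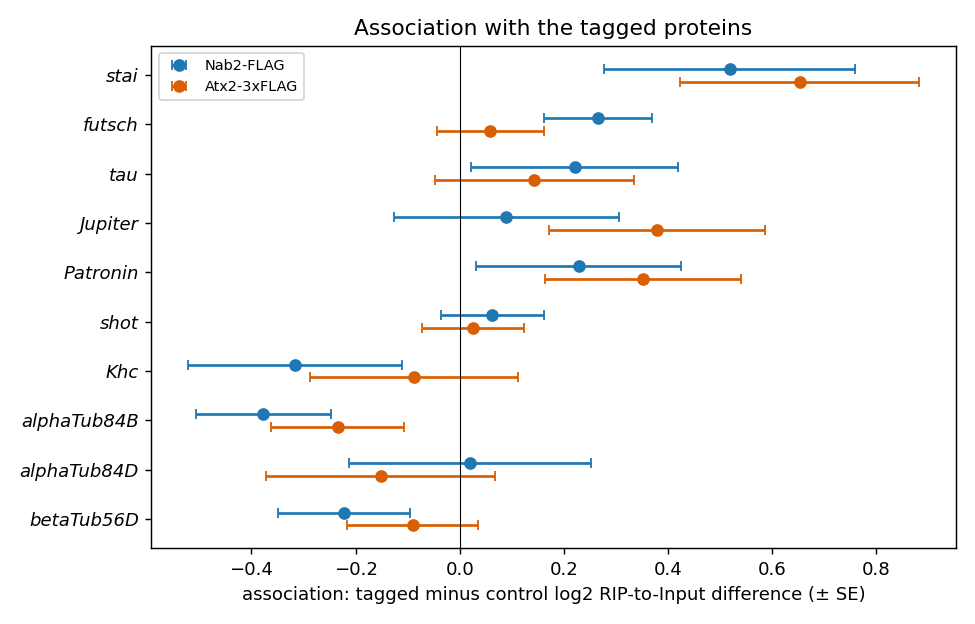
Association of the 10 RNAs (log2 RIP-to-Input difference in the tagged genotype minus that in the control, ± SE from the edgeR fit) with Nab2-FLAG in blue and Atx2-3xFLAG in orange. The stai estimates lie at 0.52 and 0.65 and alphaTub84B at -0.38 and -0.23; no estimate was called.

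The gene futsch encodes a large neuronal protein related to vertebrate MAP1B that binds microtubules along axons and at synapses (FBgn0259108, X). Its log2 ratios in the control were 0.07, 0.05, 0.06 and 0.05. Counting error alone is wider than this spread. In control replicate 3 the RIP level rests on 154 counts, with an exact Poisson interval of 629 to 869 CPM. The ratios were 0.27, 0.22, 0.50 and 0.34 in Nab2-FLAG, all above the control, a separation found for 2.38% of tested genes. In Atx2-3xFLAG they were 0.25, 0.03, 0.01 and 0.18, which overlapped the control. RIP against Input rose in Nab2-FLAG (0.33, SE 0.07, adjusted p = 0.00119), a comparison in which 7.82% of tested genes were called, and 2 of the 10 genes. The same test gave 0.06 in the control (SE 0.07, adjusted p = 0.719) and 0.12 in Atx2-3xFLAG (SE 0.07, adjusted p = 0.362). The association was 0.27 with Nab2-FLAG (SE 0.10, adjusted p = 0.487) and 0.06 with Atx2-3xFLAG (SE 0.10, adjusted p = 0.982), and their difference was 0.21 (SE 0.10, adjusted p = 1). The authors' deposited table lists futsch at 1.21 for Nab2 (Dunnett p = 0.0048) and at 1.04 for Atx2 (Dunnett p = 0.7197).

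The Input level of futsch also differed by genotype. It was 789, 826, 712 and 950 CPM in the control, 816, 901, 784 and 763 CPM in Nab2-FLAG and 986, 1092, 1011 and 961 CPM in Atx2-3xFLAG. All 4 Atx2-3xFLAG Input libraries were above all others, and 9.14% of tested genes lay wholly above the control in this Input comparison and 4.13% wholly above Nab2-FLAG. Against the control Input futsch rose by 0.30 in Atx2-3xFLAG (SE 0.10, adjusted p = 0.0368), a call that was lost without control replicate 1, 2 or 3 or Atx2-3xFLAG replicate 1, 2 or 3, with adjusted p from 0.0532 to 0.131. In the RIP it was 831, 858, 742 and 983 CPM in the control, 981, 1051, 1106 and 966 CPM in Nab2-FLAG and 1174, 1117, 1016 and 1090 CPM in Atx2-3xFLAG. Against the control RIP it rose by 0.31 in Atx2-3xFLAG (SE 0.10, adjusted p = 0.016), and the Nab2-FLAG difference was 0.23 (SE 0.10, adjusted p = 0.100; 0.0192 without control replicate 4).

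The tau gene encodes the fly member of the tau family of microtubule-binding proteins (FBgn0266579, 3R). Its RIP level was 71.1, 84.3, 53.0 and 67.2 CPM in the control, 97.3, 123, 96.5 and 113 CPM in Nab2-FLAG and 122, 114, 116 and 110 CPM in Atx2-3xFLAG. Both tagged genotypes lay wholly above the control, as 10.1% of tested genes did in Nab2-FLAG and 13.1% in Atx2-3xFLAG. Against the control RIP, tau rose by 0.56 in Nab2-FLAG (SE 0.13, adjusted p = 0.00148) and by 0.63 in Atx2-3xFLAG (SE 0.13, adjusted p = 0.000191). The Input moved in the same direction. It was 69.2, 102, 74.3 and 74.5 CPM in the control, 121, 96.3, 86.0 and 105 CPM in Nab2-FLAG and 118, 129, 108 and 120 CPM in Atx2-3xFLAG. Against the control Input tau rose by 0.55 in Atx2-3xFLAG (SE 0.15, adjusted p = 0.0071), and the Nab2-FLAG difference was 0.35 (SE 0.16, adjusted p = 0.149). Recovery of tau was -0.18 in the control (SE 0.15), 0.04 in Nab2-FLAG (SE 0.13) and -0.04 in Atx2-3xFLAG (SE 0.12), and its association was 0.22 with Nab2-FLAG (SE 0.20, adjusted p = 0.861) and 0.14 with Atx2-3xFLAG (SE 0.19, adjusted p = 0.977).

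Jupiter, a microtubule-associated protein first described in fly embryos (FBgn0051363, 3R), was measured at 70.0, 90.5, 57.8 and 64.5 CPM in the control RIP. It was at 77.1, 75.6, 82.7 and 83.7 CPM in the Nab2-FLAG RIP and at 101, 92.9, 91.7 and 109 CPM in the Atx2-3xFLAG RIP. The Atx2-3xFLAG libraries lay above all others in that fraction, and the Input levels overlapped. In the RIP, 13.1% of tested genes lay wholly higher in Atx2-3xFLAG than in the control, and 5.92% wholly higher than in Nab2-FLAG. Against the control RIP Jupiter rose by 0.39 in Atx2-3xFLAG (SE 0.13, adjusted p = 0.0246). That call was lost without control replicate 1 (adjusted p = 0.0538), control replicate 4 (0.0999) or Atx2-3xFLAG replicate 4 (0.0835). Its recovery in Atx2-3xFLAG was called as higher than Input (0.40, SE 0.13, adjusted p = 0.0409; lost without each of Atx2-3xFLAG replicates 1, 2 and 3, control replicate 2 or Nab2-FLAG replicate 1), with log2 ratios of 0.61, 0.33, 0.65 and 0.05. The Jupiter association was 0.38 with Atx2-3xFLAG (SE 0.21, adjusted p = 0.878) and 0.09 with Nab2-FLAG (SE 0.22, adjusted p = 0.973).

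Counting over the 10 genes, 2 rose in the Nab2-FLAG RIP against the control RIP (stai and tau) and none fell, where 20.0% of tested genes were called, 10.7% as higher. In the Atx2-3xFLAG RIP 4 rose (stai, tau, futsch and Jupiter) and none fell, where 24.1% were called, 12.1% as higher. In the Input none was called for Nab2-FLAG, where 12.2% of tested genes were, and 2 rose for Atx2-3xFLAG (tau and futsch), where 16.5% were called, 8.91% as higher. Between the tagged genotypes none of the 10 was called in the Input or the RIP, where 4.26% and 4.34% of tested genes were. The median RIP difference of the 10 from the control was 0.04 in Nab2-FLAG and 0.17 in Atx2-3xFLAG, beside -0.01 and -0.03 over all tested genes. The comparisons of the 2 tagged genotypes with the control use the same control libraries.

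**Figure D4:**
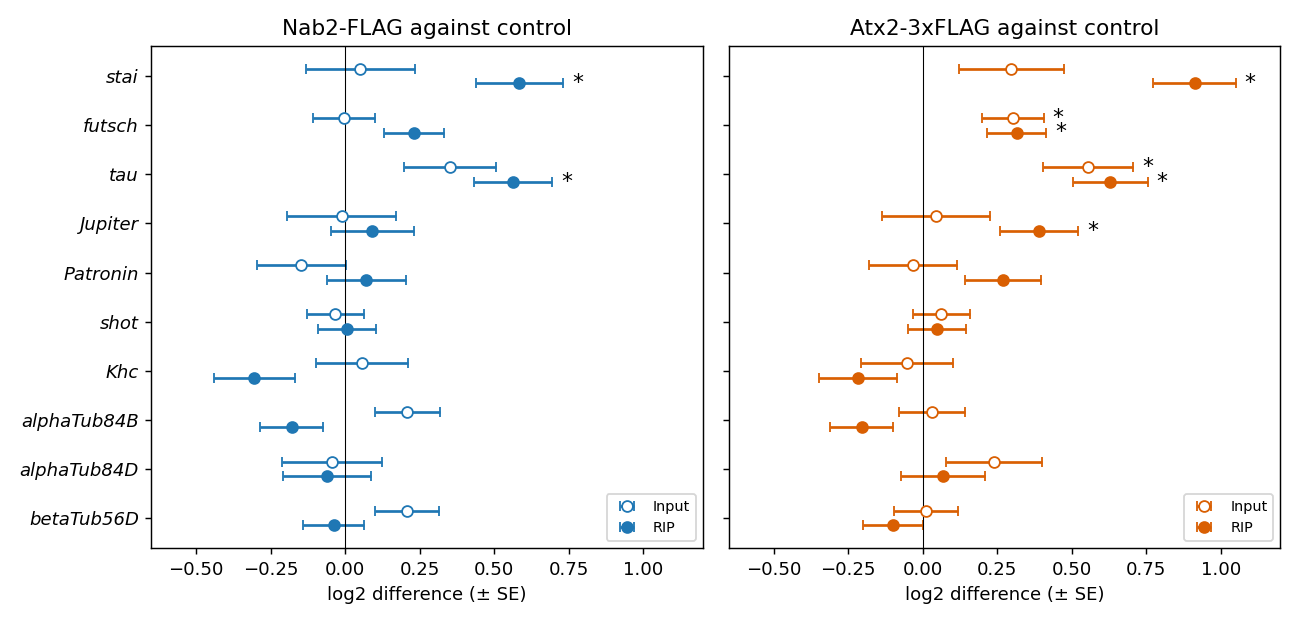
Log2 difference from the control (± SE, edgeR) of the 10 RNAs in the Input (open circles) and in the RIP (filled circles), for Nab2-FLAG on the left and Atx2-3xFLAG on the right; an asterisk marks an adjusted p under 0.05. For stai the Input values are 0.05 and 0.30 and the RIP values 0.58 and 0.91, whereas tau has an Input value of 0.55 beside a RIP value of 0.63 in Atx2-3xFLAG.

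Levels of some neuron markers also differed between genotypes. The summed level of 14 neuron marker genes, all of which passed the filter, ranged from 2428 to 2759 CPM in the control RIP, from 2726 to 3020 CPM in the Nab2-FLAG RIP and from 3114 to 4017 CPM in the Atx2-3xFLAG RIP. In the Input it ranged from 1991 to 2595 CPM in the control, from 2037 to 2315 CPM in Nab2-FLAG and from 2340 to 2951 CPM in Atx2-3xFLAG. In the Nab2-FLAG RIP 4 of the 14 rose and 2 fell against the control RIP, whereas the Atx2-3xFLAG RIP had 9 that rose and 1 that fell. In the Nab2-FLAG Input 2 rose and 1 fell, and the Atx2-3xFLAG Input had 7 that rose and 1 that fell. Over all tested genes, 20.0% were called in the Nab2-FLAG RIP and 24.1% in the Atx2-3xFLAG RIP. The shares in the Input were 12.2% and 16.5%. No association of the 14 was called, and their median association was 0.15 with Nab2-FLAG and 0.12 with Atx2-3xFLAG. Recovery against Input was called in either direction for 7.43% of tested genes in the control lysates, 7.82% in those of Nab2-FLAG and 7.76% in those of Atx2-3xFLAG. Recovery of the 14 neuron markers was called as higher for 4 in the control and for 8 in each tagged genotype. That of the 12 photoreceptor markers was called as lower for 10 in the control and for 11 in each tagged genotype. The part of these markers in the differences of stai, tau, futsch and Jupiter was not tested, and in whole heads more cells of a type and more RNA per cell cannot be told apart.

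Levels of photoreceptor, muscle, glia and fat body markers differed between genotypes as well. The summed level of 12 photoreceptor genes was 84206 to 117494 CPM in the control Input, 58511 to 71505 CPM in the Nab2-FLAG Input and 58051 to 69842 CPM in the Atx2-3xFLAG Input. In the RIP it was 66657 to 82078 CPM in the control, 43767 to 45900 CPM in Nab2-FLAG and 45525 to 48713 CPM in Atx2-3xFLAG. Single photoreceptor genes went both ways, with 2 higher and 6 lower than the control in each tagged Input. Of 10 tested muscle genes, 10 were higher in the Nab2-FLAG Input and 9 in the Atx2-3xFLAG Input than in the control Input. In either direction, 12.2% of tested genes were called in the Nab2-FLAG Input and 16.5% in the Atx2-3xFLAG Input. The summed muscle level was 4261 to 5387 CPM in the control Input, against 7855 to 9838 CPM and 7838 to 8494 CPM. For glia it was 1407 to 1742 CPM, 2043 to 2110 CPM and 1713 to 1817 CPM, and for fat body 107165 to 144267 CPM, 99922 to 122462 CPM and 71491 to 78530 CPM, in control, Nab2-FLAG and Atx2-3xFLAG Input. Of 7 tested fat body genes, 3 were higher and 0 lower in the Nab2-FLAG Input, and 1 was higher and 2 lower in the Atx2-3xFLAG Input. Of 10 tested glia genes, 3 were higher and 0 lower in the Nab2-FLAG Input, and 1 was higher and 1 lower in the Atx2-3xFLAG Input. No marker gene was at 0 in all libraries of a group, and the part of these markers was not tested.

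The tubulins are the subunits of the polymer. The major alpha-tubulin gene alphaTub84B (FBgn0003884, 3R) had log2 RIP-to-Input ratios of -0.19, 0.00, -0.40 and 0.25 in the control, -0.38, -0.50, -0.80 and -0.16 in Nab2-FLAG and -0.59, -0.37, -0.22 and -0.06 in Atx2-3xFLAG. All 8 tagged lysates were below 0, while the groups overlapped with the control. RIP against Input fell by 0.45 in Nab2-FLAG (SE 0.09, adjusted p = 0.000772) and by 0.31 in Atx2-3xFLAG (SE 0.09, adjusted p = 0.0227), and with library size as the only scaling these values were -0.065 and 0.070. Leaving out Atx2-3xFLAG replicate 1, 2 or 3 ended the Atx2-3xFLAG call, with adjusted p of 0.153, 0.136 and 0.0510. The control difference was -0.07 (SE 0.09, adjusted p = 0.730), and the association was -0.38 with Nab2-FLAG (SE 0.13, adjusted p = 0.391) and -0.23 with Atx2-3xFLAG (SE 0.13, adjusted p = 0.878).

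The level of alphaTub84B was 831, 721, 980 and 723 CPM in the control Input, 936, 986, 1061 and 765 CPM in the Nab2-FLAG Input and 809, 864, 865 and 786 CPM in the Atx2-3xFLAG Input. In the RIP it was 726, 720, 742 and 858 CPM in the control, 718, 694, 610 and 686 CPM in Nab2-FLAG and 537, 669, 741 and 753 CPM in Atx2-3xFLAG. The Nab2-FLAG RIP libraries lay below all control RIP libraries, a separation found for 8.56% of tested genes, and the difference was -0.18 (SE 0.11, adjusted p = 0.253). The gene alphaTub84D (FBgn0003885, 3R) encodes an almost identical protein, so the counting could have split reads between the copies. Its levels ran from 48.2 to 90.3 CPM over all 24 libraries, with overlap between the genotypes within each fraction. The alphaTub84D association was 0.02 with Nab2-FLAG (SE 0.23, adjusted p = 0.997) and -0.15 with Atx2-3xFLAG (SE 0.22, adjusted p = 0.978). Without control replicate 4 these values were 0.29 (SE 0.25) and 0.12 (SE 0.24), and with a lysate left out in turn the Nab2-FLAG value ran from -0.09 to 0.29. With both copies summed the alphaTub84B recovery was -0.42 in Nab2-FLAG (adjusted p = 0.00203) and -0.30 in Atx2-3xFLAG (adjusted p = 0.0305).

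The major beta-tubulin gene betaTub56D (FBgn0284243, 2R) had log2 ratios of 0.02, 0.01, 0.18 and 0.10 in the control and of -0.17, -0.10, -0.33 and -0.05 in Nab2-FLAG. The Nab2-FLAG lysates lay wholly below the control, as they did for 1.82% of tested genes. In Atx2-3xFLAG the ratios were -0.27, -0.03, -0.05 and 0.25, which overlapped the control. The association was -0.22 with Nab2-FLAG (SE 0.13, adjusted p = 0.754) and -0.09 with Atx2-3xFLAG (SE 0.13, adjusted p = 0.978). Its Input level was 286, 271, 301 and 305 CPM in the control, and 326, 326, 374 and 313 CPM in Nab2-FLAG, all above the control (0.21, SE 0.11, adjusted p = 0.241), a separation found for 8.44% of tested genes. The RIP levels overlapped, at 272 to 342 CPM in the control and 289 to 304 CPM in Nab2-FLAG (-0.04, SE 0.10, adjusted p = 0.843).

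Patronin binds and protects microtubule minus ends, as its vertebrate relatives of the CAMSAP family do (FBgn0263197, 2R). Its log2 ratios were 0.16, 0.19, -1.13 and -0.08 in the control, 0.06, 0.14, -0.01 and 0.56 in Nab2-FLAG and 0.58, 0.23, 0.22 and 0.22 in Atx2-3xFLAG. The Atx2-3xFLAG lysates lay above all control lysates, as for 2.16% of tested genes, but narrowly, the lowest at 0.22 beside a control ratio of 0.19. The control value of -1.13 is again that of replicate 3, whose RIP level of 48.2 CPM rests on 10 counts and stood against 110, 101 and 106 CPM in the other control RIP libraries. The Patronin association was 0.23 with Nab2-FLAG (SE 0.20, adjusted p = 0.848) and 0.35 with Atx2-3xFLAG (SE 0.19, adjusted p = 0.878), and without control replicate 3 these values were 0.10 (SE 0.19) and 0.20 (SE 0.19). Without Nab2-FLAG replicate 4 the former was 0.12 (SE 0.21). Its RIP level in Atx2-3xFLAG was 132, 134, 113 and 118 CPM, above all control RIP libraries as for 13.1% of tested genes, and the difference was 0.27 (SE 0.13, adjusted p = 0.125).

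The spectraplakin gene shot, whose product links microtubules to actin (FBgn0013733, 2R), varied little. Its Input level was 1312 to 1366 CPM in the control, 1290 to 1329 CPM in Nab2-FLAG and 1366 to 1465 CPM in Atx2-3xFLAG, and its RIP level was 1272 to 1607 CPM, 1394 to 1599 CPM and 1468 to 1571 CPM. It had the largest total of counts among the 10 genes, 35533 over all libraries. The shot association was 0.06 with Nab2-FLAG (SE 0.10, adjusted p = 0.932) and 0.03 with Atx2-3xFLAG (SE 0.10, adjusted p = 1), the latter -0.04 to 0.07 with a lysate left out in turn.

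The heavy chain of kinesin-1, the motor that carries cargo toward microtubule plus ends, is encoded by Khc (FBgn0001308, 2R). Its RIP level was 93.7, 101, 111 and 96.4 CPM in the control, 79.9, 83.5, 107 and 70.4 CPM in Nab2-FLAG and 112, 83.8, 75.4 and 83.7 CPM in Atx2-3xFLAG, with overlap between all groups. The Input levels ran from 65.2 to 103 CPM over the 12 libraries. The Khc association was -0.32 with Nab2-FLAG (SE 0.21, adjusted p = 0.799) and -0.09 with Atx2-3xFLAG (SE 0.20, adjusted p = 0.995), the latter -0.19 to 0.0080 with a lysate left out in turn.

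Recovery against Input was called for none of the 10 genes in the control, where 7.43% of tested genes were called. In Nab2-FLAG futsch was called as higher, as were 3.42% of tested genes, and alphaTub84B as lower, as were 4.41%. In Atx2-3xFLAG, where 7.76% of tested genes were called, stai and Jupiter were higher, as were 4.0% of tested genes, and alphaTub84B was lower, as were 3.76%. The Atx2-3xFLAG count was 0 without Atx2-3xFLAG replicate 1, 2 or 3 and 1 without Nab2-FLAG replicate 1. In the authors' deposited table the other 8 genes had no Dunnett p under 0.05 among those listed, and the smallest among them was 0.0561 for Jupiter with Atx2 (ratio 1.35). That table gives no Dunnett p of alphaTub84D for Nab2.

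Beyond the 10, other genes of the microtubule system were examined as 5 lists of 84 genes, of which 82 were in the count tables and 53 passed the filter. No association with either protein was called among them. Of these lists 3 of 7 other tubulins, 13 of 15 microtubule-associated and end-binding genes, 11 of 21 kinesin genes, 14 of 18 dynein and dynactin genes and 12 of 23 severing, modifying and folding genes were tested. None of the 11 kinesin genes and none of the 3 tubulin genes was called in any of the 12 comparisons. The median association of the 3 tubulin genes was -0.60 with Nab2-FLAG and -0.14 with Atx2-3xFLAG. None of these 3 had an unadjusted p under 0.05 with either protein. The median of the 14 dynein and dynactin genes was 0.14 with Nab2-FLAG and 0.17 with Atx2-3xFLAG. It was 0.15 and 0.01 for the 13 microtubule-associated and end-binding genes, and 0.16 and 0.02 for the 11 kinesin genes. For the 12 severing, modifying and folding genes it was 0.04 and 0.03, beside 0.01 and 0.02 over all tested genes.

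Levels of some of these genes differed between genotypes in both fractions. The dynein light chain gene ctp was at 88.0 to 229 CPM in the control Input, 280 to 371 CPM in the Nab2-FLAG Input and 418 to 513 CPM in the Atx2-3xFLAG Input. It rose by 0.94 in Nab2-FLAG (SE 0.19, adjusted p = 0.00322) and by 1.52 in Atx2-3xFLAG (SE 0.19, adjusted p = 1.64e-05). In the RIP ctp rose by 0.97 and 1.38 (adjusted p = 1.2e-08 and 8.64e-13). Map205, a microtubule-associated protein gene, was at 27.4 to 45.7 CPM in the control Input, and rose by 0.91 in the Nab2-FLAG Input (SE 0.20, adjusted p = 0.000793) and by 0.76 in the Atx2-3xFLAG Input (SE 0.20, adjusted p = 0.00474). Nna1, a relative of carboxypeptidases that trim glutamates from tubulin, rose by 0.69 in Nab2-FLAG Input (SE 0.22, adjusted p = 0.0301) and by 0.90 in Atx2-3xFLAG Input (SE 0.21, adjusted p = 0.00169). DCX-EMAP, a doublecortin-domain gene needed in fly mechanosensory organs, was at 23.3 ± 7.24 CPM (SD, n = 4) in the control Input. It fell by 1.35 in the Nab2-FLAG Input (SE 0.37, adjusted p = 0.00867) and fell by 1.59 in the Atx2-3xFLAG Input (SE 0.37, adjusted p = 0.00138).

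The dynactin subunit gene DCTN1-p150 differed between the tagged genotypes. Its Input level was 45.0 to 54.1 CPM in the control, 68.6 to 77.5 CPM in Nab2-FLAG and 34.7 to 46.6 CPM in Atx2-3xFLAG. Nab2-FLAG exceeded Atx2-3xFLAG by 0.88 in the Input (SE 0.17, adjusted p = 0.000579) and by 0.85 in the RIP (SE 0.14, adjusted p = 4.31e-05). The tubulin deacetylase gene HDAC6 was lower than in the control RIP in both tagged genotypes, with a log2 difference of -0.68 in Nab2-FLAG (SE 0.11, adjusted p = 6.68e-06) and -0.45 in Atx2-3xFLAG (SE 0.10, adjusted p = 0.000919), and was also lower in the Nab2-FLAG Input (-0.40, SE 0.13, adjusted p = 0.0428). In all, 4 of the 53 rose and 2 fell in the Nab2-FLAG Input, 3 rose and 1 fell in the Atx2-3xFLAG Input, 5 rose and 4 fell in the Nab2-FLAG RIP and 4 rose and 3 fell in the Atx2-3xFLAG RIP. Over all tested genes the shares called in these comparisons were 12.2%, 16.5%, 20.0% and 24.1%. Against its own Input, ensconsin (ens), a cofactor of kinesin-1, was called as higher in the RIP of every genotype, by 0.37 in the control (SE 0.12, adjusted p = 0.0294), 0.39 in Nab2-FLAG (SE 0.11, adjusted p = 0.0183) and 0.33 in Atx2-3xFLAG (SE 0.10, adjusted p = 0.0343).

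The recovery pattern of stai over the 12 lysates was set beside that of the other genes with a mean of at least 20 CPM, 4123 in all, by Pearson correlation of the log2 RIP-to-Input ratios. The 5 most alike were CG10433 (r = 0.914), CG4302 (0.908), CG40178 (0.902), CG31326 (0.897) and Trf2 (0.892). The ratios of a lysate share their libraries, depth and scaling, and the genes were chosen for their r, so these values are a description. Without control replicates 2 and 3, the 2 lysates farthest from the stai median, r over the other 10 was 0.778, 0.829, 0.811, 0.680 and 0.608 in the same order. By Spearman correlation only CG40178 was again among the 5 most alike. Of the other 9 genes followed here, Patronin (r = 0.789), Jupiter (0.788) and tau (0.753) were the most like stai, and betaTub56D (-0.613), Khc (-0.388) and alphaTub84B (-0.307) the least, and over those 10 lysates r was 0.366 for Patronin and 0.0854 for Khc. The association of CG10433 was 0.26 with Nab2-FLAG (SE 0.18, adjusted p = 0.810) and 0.44 with Atx2-3xFLAG (SE 0.18, adjusted p = 0.825), and none of the 5 had a called association.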

How the data were processed

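Gene counts were deposited by the authors as 1 raw count table per library, made with STAR 2.6.0b-1, featureCounts 1.6.3 and BDGP6, per the submitters' processing notes. The kit was stranded per the labels' protocols, while which annotation and strand option the counting used is not given in the sources used here. Within the span of a member, no other counted gene in the RefSeq table of the same release had more than 42 counts over all libraries. The authors' deposited percent-input table gives, per the file headers, ratios of percent input to control and p-values of an analysis of variance and Dunnett's test, and 24 per-sample columns of it were not used. A normalized count table of the authors was not used.

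Counts were tested in R 4.3.3 with edgeR 4.0.16 (TMM, filterByExpr on 6 groups, robust quasi-likelihood, two-sided, Benjamini-Hochberg, threshold 0.05). Associations and recoveries came from 1 fit of 24 libraries with a term per lysate, which the labels say RIP and Input share (their deviations correlated with a median r of 0.181 over 12 lysates, above 0.1 in 10). Genotypes were compared within the 12 Input or 12 RIP libraries without a block. Log2 ratios per lysate used a prior count of 2. The code was tested on simulated data. DESeq2 1.42.0 and limma 3.58.1 served as alternatives, with other scalings, filters and each lysate left out. Replicates differed by more than sampling noise (chi-square per degree of freedom 1.39 to 6.54). Named genes are the 10 members, Nab2, Atx2 and elav, and the 5 genes most like stai. Of the microtubule lists, some but not all of the up to 6 largest called genes per comparison are named. The members and lists were chosen with earlier results of these data known. No sequences are shown.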

Additional observations from a re-analysis of the deposited data

Results flagged for a closer look

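Among 90 groups of 4 values (levels in the 6 groups and ratios in the 3 genotypes), 9 held a lysate or library farther from the rest than Dixon's 95% value allows, where chance gives about 4.5. For stai the ratio of control replicate 3 was -0.98, against -0.20 to -0.04 in the other control lysates. The level of stai was 106 CPM in Atx2-3xFLAG RIP replicate 1, against 85.1 to 88.5 CPM, and 56.6 CPM in Atx2-3xFLAG Input replicate 3, against 71.8 to 73.4 CPM. For Patronin the control RIP replicate 3 stood at 48.2 CPM, against 101 to 110 CPM, and the ratio of Atx2-3xFLAG replicate 1 at 0.58, against 0.22 to 0.23. The alphaTub84B level was 858 CPM in control RIP replicate 4, against 720 to 742 CPM. The tau level was 102 CPM in control Input replicate 2, against 69.2 to 74.5 CPM. The shot level was 1468 CPM in Atx2-3xFLAG RIP replicate 2, against 1558 to 1571 CPM. The Khc level was 65.2 CPM in Atx2-3xFLAG Input replicate 4, against 86.3 to 86.6 CPM.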

How the results depend on the processing

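Of 2508 member values recomputed under the alternatives, 2341 kept their direction and their side of the threshold, 40 lost a call, 28 gained one and 4 reversed. The other 95 changed sign without being called in either setting, 26 of them by more than 1 SE. All 4 reversals came with library size as the only scaling, which moves the median of all genes in RIP against Input by 0.37 to 0.40: alphaTub84B stood at 0.34 in the control and 0.070 in Atx2-3xFLAG, and betaTub56D at 0.35 and tau at 0.34 in Atx2-3xFLAG. Under that scaling RIP against Input called 6 members in the control, 6 with Nab2-FLAG and 8 with Atx2-3xFLAG, and the Input of the tagged genotypes gave 3 and 6 calls against control. The Atx2-3xFLAG recovery count of 3 was 1 with DESeq2 size factors, 1 without mitochondrially encoded genes, 0 with the DESeq2 Wald test, 0 with limma on log2 ratios and 0 to 3 with a lysate left out. The Nab2-FLAG recovery count of 2 was 0 with limma. The Atx2-3xFLAG Input count of 2 was 1 without the 2 shallowest lysates and 1 to 2 with any lysate left out, and the count between tagged genotypes in the Input was 0 to 1. The stai and tau calls in the RIP held in 20 of 20 alternatives for each protein. Without the lysate term (no replicate block) the Atx2-3xFLAG recovery count was 0. Replicate numbers across genotypes were not taken as pairs, because the labels name no shared source for them. Same-numbered libraries correlated above 0.1 in 7 of 12 Input pairs and 4 of 12 RIP pairs (median r 0.129 and 0.0696). Whether a replicate number marks a shared block was not tested. With that replicate block added, 1 association with Nab2-FLAG was called among the members (alphaTub84B, -0.37, adjusted p = 0.0266), 48, 31 and 4 genes were called in all against 6, 3 and 0 for Nab2-FLAG, Atx2-3xFLAG and their difference, and futsch was called between tagged genotypes in the Input, 1 member against 0. The causes were not tested. Members with few counts, as stai with 7 in the shallowest RIP library, are limited by depth.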
